A study of Rattus norvegicus with 20 samples.

Results

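Rat progenitor cells in culture were compared with their treated derivatives, to ask which transcripts differ in both kinds of derivative from both kinds of progenitor culture. The treated side comprised all 4 cultures given FBS, labelled as a way to derive astrocytes, and all 4 given RA/Fsk, labelled as a way to derive neurons. The reference side comprised 3 low-density cultures of CCg progenitors (LD), the cells from which both derivatives were made, and 3 high-density progenitor cultures (HD). FBS commonly stands for fetal bovine serum, RA for retinoic acid and Fsk for forskolin. CCg is not expanded in the labels, and those of the HD arrays do not mention it. Arrays that share a group and a number in their titles were averaged on the log2 scale into 1 culture, so all 14 cultures of the series, from all 20 arrays, entered: 8 treated and 6 progenitor cultures. The labels give no strain, age, dose or treatment time, and nothing in them tells whether differently numbered samples were grown apart; the p-values cover only the spread among samples, which may be technical. Both derivatives come from LD cells, none from HD.

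Neural progenitors divide and remain uncommitted, and serum or retinoic acid with cyclic AMP agonists are widely used to push such cells towards glial or neuronal fates. Leaving the cycle involves fewer transcripts for replication and mitosis, many of which are known targets of E2F factors or of the DREAM complex. D-type cyclins and kinase inhibitors sit upstream of that switch, and cholesterol synthesis is controlled by SREBP and by sterol supply. These points are background.

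A probe set was called a common rise or a common fall when all 4 comparisons (FBS against HD, FBS against LD, RA/Fsk against HD, RA/Fsk against LD) had the same sign and each passed limma's test at a Benjamini-Hochberg adjusted p under 0.05. Of 8740 probe sets, 177 were common rises (2.03%) and 138 were common falls (1.58%). They covered 123 and 92 genes with a single symbol, and no gene appeared on both sides. The 8 treated and 6 progenitor cultures did not overlap for 166 of the 177 rises and 127 of the 138 falls; over all probe sets 251 were higher and 212 lower without overlap, 5.3% of those tested. A difference of at least 2-fold in each of the 4 comparisons was met by 97 rises and 44 falls. The number of falls moved with single cultures, to 89 without LD culture 3 and 88 without LD culture 4.

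On the average of the treatments against the average of the progenitors, 1020 probe sets were higher (11.7%) and 897 lower (10.3%), so most average differences did not meet the common rule. In simulated data, 200 probe sets were changed in both treatments in each of 5 runs, and others in FBS alone. The common rule found 34.6% of the shared changes of 1 log2 and 3.28% of those of 0.5 log2. With the average difference the shares were 75.5% and 32.8%. The single comparisons of the real data called more probe sets than were changed there, so these shares need not hold for the data. Failing the common rule does not by itself show a change confined to 1 treatment. Of the average rises, 437 passed both comparisons of FBS and neither of RA/Fsk, and 54 the reverse; of the average falls, the counts were 356 and 18. In 114 average rises and 34 average falls a treatment's own mean difference had the opposite sign. The single comparisons called 1832 probe sets for FBS against HD (21.0%), 2225 for FBS against LD (25.5%), 889 for RA/Fsk against HD (10.2%) and 721 for RA/Fsk against LD (8.25%). Comparisons that share a treatment or a progenitor group share cultures. Those of FBS against LD and of RA/Fsk against HD share none, and across probe sets, which are not independent replicates, their differences correlated at r = 0.22. In that pair 220 probe sets were higher in both, 210 lower in both and 91 opposite. For FBS against HD and RA/Fsk against LD, r was 0.41, with 259 higher in both, 191 lower in both and 24 opposite.

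**Figure D1:**
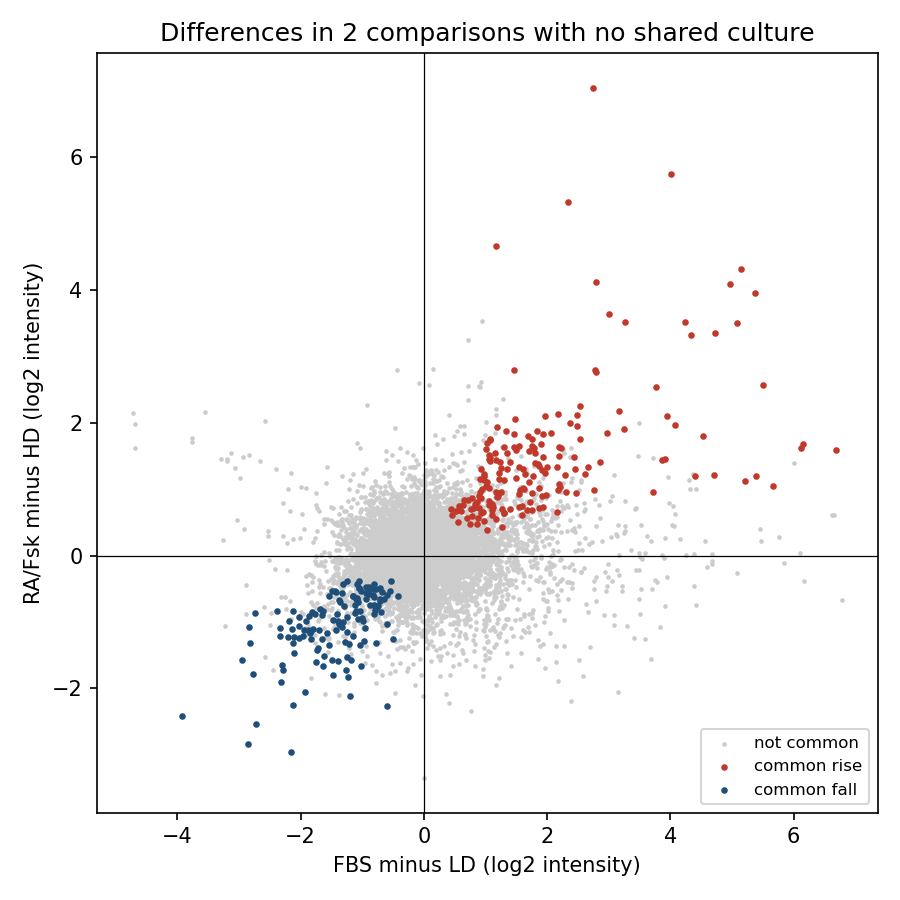
Each point is a probe set, with its log2 difference between FBS and LD cultures on the x axis and between RA/Fsk and HD cultures on the y axis. Red points are the 177 common rises and blue points the 138 common falls; many grey points lie far along the FBS axis and near 0 on the RA/Fsk axis.

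RA/Fsk culture 3 stood apart from the other RA/Fsk cultures in several gene groups, and its values are given beside them. The first principal component (37.9% of the variance) set the 4 FBS cultures apart from the other 10. On the second (13.4%) RA/Fsk culture 1 also lay apart, at -40.6 against -26.9 to -20.3 in the other RA/Fsk cultures. Arrays of 1 culture correlated at r = 0.951 to 0.975. The ratio of the GAPDH probe sets at the 5' and 3' ends, a sign of RNA integrity, averaged -0.17 log2 in treated and -0.20 log2 in progenitor cultures (exact permutation test, 2-sided p = 0.816). By group it averaged -0.06 log2 with FBS, -0.29 with RA/Fsk, -0.06 in HD and -0.33 in LD. The pooled test therefore does not cover the single comparisons of FBS with LD or of RA/Fsk with HD, where the ratio differed in opposite directions. Probe sets for spiked bacterial transcripts fell by 0.35 log2 in treated cultures (9.81 against 10.16 log2; exact permutation p = 0.0476, adjusted over 5 control measures 0.238). The median difference over all probe sets was 0.001 log2.

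Of 20 measured genes of DNA replication, 12 were common falls and 0 common rises (over all 4736 genes, 75 fell and 112 rose), and the list's median average difference was -1.16 log2 against 0.02 for all genes. Prim1, the catalytic subunit of primase, had intensities of 203, 204, 158 and 217 in FBS cultures and 385, 427, 191 and 432 in RA/Fsk cultures, against 875, 636.5 and 759.7 in HD and 734, 717 and 839 in LD cultures. All treated values lay below all progenitor values, and RA/Fsk culture 3 was as low as the FBS cultures. Its average difference was -1.53 ± 0.16 log2 (SE), with a limma adjusted p of 2.78e-06 and a largest adjusted p of 0.00447 among the 4 comparisons. Mcm7, a subunit of the replicative helicase, had 566, 807 and 1412.5 in treated cultures (lowest, median, highest), against 1876, 2019.9 and 2410.1 in progenitor cultures, a difference of -1.24 ± 0.12 log2. Pola1, the catalytic subunit of DNA polymerase alpha, was dim throughout, at 2.9 to 18.7 in treated cultures against 35.4 to 62.8 in progenitors, and its difference of -1.998 ± 0.25 log2 shrank to -0.75 with a pseudocount of 49.9. Rpa2, part of the protein that coats single-stranded DNA, had 85.3 to 163 in treated cultures against 238 to 268 in progenitors (-1.09 ± 0.12 log2). Pcna, the sliding clamp of the polymerases, had 1558 to 3416 in treated cultures against 3732 to 4840.1 in progenitors (-1.03 ± 0.15 log2), and Ung, which removes uracil from DNA, had 43.7 to 158 in treated cultures against 162 to 245 in progenitors (-1.45 ± 0.23 log2).

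The calls of Pcna and Ung were near the threshold: their largest adjusted p was 0.0404 and 0.0378. Pcna lost the call in 14 of 27 other settings, among them without any 1 of FBS cultures 3 and 4, RA/Fsk culture 1, HD cultures 1, 2 and 4 and LD cultures 1, 3 and 4 (adjusted p 0.0506 to 0.144). Ung lost it in 10, among them without FBS culture 3, RA/Fsk cultures 2 and 3, HD cultures 1, 2 and 4 and LD culture 3 (0.0505 to 0.129). Prim1 lost it with the GAPDH ratio as a covariate (0.0556), and a second Prim1 probe set fell on average but was not a common fall. A second Pcna probe set was also a common fall (largest adjusted p 0.0168). The list's count was 6 without FBS culture 3, without HD culture 1 and without LD culture 3, 7 without HD culture 4 and without RA/Fsk culture 3, and 5 with the GAPDH ratio as a covariate. Summed intensity over the list was 8544, 11277, 6011 and 11871 in RA/Fsk cultures 1 to 4 and 5075 to 5426 with FBS, against 14873 to 17133 in HD and 15188 to 17861 in LD.

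Of 20 measured genes of mitosis, 7 were common falls (Aurkb, Cdc20, Hmmr, Kifc1, Plk1, Pttg1 and Stmn1), 35% against 1.584% of all genes. On average 17 fell, with a median of -1.28 log2. Kifc1, a minus-end kinesin of the spindle, had 79.4, 125, 142 and 147 in FBS cultures and 301, 317, 166 and 394 in RA/Fsk cultures, against 535.5, 634 and 845 in HD and 531, 619 and 749.9 in LD cultures. The groups did not overlap, and the difference was -1.77 ± 0.19 log2 (SE), with a limma adjusted p of 2.78e-06 and a largest adjusted p of 0.0116 among the 4 comparisons. Pttg1, or securin, which holds separase inactive until anaphase, had 580.2, 651 and 1506 in treated cultures (lowest, median, highest), against 2084, 2248.5 and 2628 in progenitor cultures (-1.48 ± 0.17 log2). Stmn1, a microtubule-destabilising protein, had 1006, 1295 and 1973 in treated cultures (lowest, median, highest), against 2281, 2532 and 3265 in progenitor cultures (-0.93 ± 0.12 log2). Kifc1 lost its call without HD culture 4 (0.0505) or LD culture 4 (0.0611), and Stmn1 without LD culture 3 (0.087) or 4 (0.056). The list's count was 2 without LD culture 3, 3 without LD culture 1 or 4, 11 without RA/Fsk culture 2 or 4, 4 with the GAPDH ratio as a covariate and 11 with RA/Fsk and LD cultures of a shared number as a random replicate block. Its summed intensity was 6573 in RA/Fsk culture 3 and up to 12365 in the other RA/Fsk cultures, with 6084 to 7011 in FBS cultures, against 14792 to 18134 in progenitors. Fewer dividing cells and less RNA per cell cannot be told apart in these bulk samples.

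The upstream sequences of 5 of these genes are printed as examples that hold an E2F or CHR match, so they do not stand for the lists. An E2F motif is held by 3 of them, and the other 2 hold a CHR motif near the start. Mcm7 also holds a CHR match, further from the start. Pcna and Rpa2, not printed, had CCAAT matches only. They are the 250 bases before the annotated start, from RefSeq, build GRCr8, written 5' to 3' on the gene's strand. Capitals mark matches to E2F (TTTGGCGC, TTTCCCGC, TTTGGCGG, TTTCCCGG or TTTCGCGC), CHR (TTTGAA or TTCGAA) or CCAAT on either strand; in Mcm7 an E2F match overlaps a CCAAT match.
Mcm7, chr12:22163179-22163428, strand -: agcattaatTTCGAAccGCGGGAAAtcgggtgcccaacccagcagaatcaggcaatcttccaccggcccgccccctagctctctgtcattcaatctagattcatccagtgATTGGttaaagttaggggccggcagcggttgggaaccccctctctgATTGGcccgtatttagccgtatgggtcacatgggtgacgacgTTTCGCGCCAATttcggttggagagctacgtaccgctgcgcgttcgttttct
Pola1, chrX:62342356-62342605, strand -: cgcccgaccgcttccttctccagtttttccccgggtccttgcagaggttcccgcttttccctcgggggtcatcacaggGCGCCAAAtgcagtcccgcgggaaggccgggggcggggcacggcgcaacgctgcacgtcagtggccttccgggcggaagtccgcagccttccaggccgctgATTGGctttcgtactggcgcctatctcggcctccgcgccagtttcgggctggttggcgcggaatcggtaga
Stmn1, chr5:151964929-151965178, strand +: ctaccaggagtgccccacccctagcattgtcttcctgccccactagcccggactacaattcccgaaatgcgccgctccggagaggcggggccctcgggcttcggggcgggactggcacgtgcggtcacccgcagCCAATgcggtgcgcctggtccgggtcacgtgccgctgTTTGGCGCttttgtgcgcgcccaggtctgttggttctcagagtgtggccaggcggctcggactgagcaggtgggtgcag
Kifc1, chr20:5000679-5000928, strand +: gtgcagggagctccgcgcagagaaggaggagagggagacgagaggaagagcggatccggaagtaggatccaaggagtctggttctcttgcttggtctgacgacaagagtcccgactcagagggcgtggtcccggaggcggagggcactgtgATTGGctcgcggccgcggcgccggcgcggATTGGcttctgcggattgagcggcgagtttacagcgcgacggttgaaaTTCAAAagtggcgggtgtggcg
Pttg1, chr10:28406327-28406576, strand -: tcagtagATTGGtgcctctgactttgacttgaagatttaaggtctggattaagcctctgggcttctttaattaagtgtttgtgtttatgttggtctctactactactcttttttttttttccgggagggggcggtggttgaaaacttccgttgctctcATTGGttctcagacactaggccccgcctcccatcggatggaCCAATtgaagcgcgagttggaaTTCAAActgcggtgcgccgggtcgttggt

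The E2F match of Mcm7 next to the start lies at -52, that of Stmn1 at -79 and that of Pola1 at -172, counted from the first base of the match to the start. The CHR matches of Kifc1 and Pttg1 lie at -22 and -29. Of the 19 common falls in the replication and mitosis lists, 17 had a promoter in the table: 5 held an E2F motif (29.4%), 6 a CHR motif (35.3%) and 12 CCAAT (70.6%). Among the 3871 tested genes with a promoter the shares were 3.82%, 11.8% and 35.8%, and among all 27457 promoters 3.08%, 17.3% and 34.3%. Common rises held E2F in 1 of 94 promoters. These are counts of letters, with no test, and a match is not a binding site.

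The D-type cyclins Ccnd2 and Ccnd3 were higher in both derivatives. Ccnd2, a D-type cyclin that activates Cdk4 and Cdk6, had 2321, 2284, 3333 and 2492.5 in FBS cultures and 3249, 4347, 5641 and 3876 in RA/Fsk cultures, against 477, 166 and 457 in HD and 264, 505 and 241 in LD cultures. Every treated culture was above every progenitor culture, and the difference was 3.32 ± 0.23 log2 (SE), with a limma adjusted p of 2.99e-08 and a largest adjusted p of 3.96e-06 among the 4 comparisons. Ccnd3 had 779.8 to 1443 in treated cultures against 264 to 469 in progenitors (1.54 ± 0.13 log2), with 1 of its 3 other probe sets also a common rise, while Ccnd1, at 1542 to 3427 in treated cultures against 1702 to 4197 in progenitors, did not pass (-0.19 ± 0.14 log2, adjusted p 0.403). Cdkn2b, an inhibitor of Cdk4 and Cdk6, had 64.9 to 245 in treated cultures against 20.5 to 43.3 in progenitors (1.88 ± 0.23 log2), and lost its call without HD culture 1 (0.0635) or 2 (0.0551), or with the GAPDH ratio as a covariate (0.0562). Cdkn1b, another inhibitor, had 48.1 to 146 in treated cultures against 23.1 to 79.0 in progenitors and did not pass (0.52 ± 0.20 log2, adjusted p 0.0755). Of 15 measured genes of this list 3 were common rises (20%, against 2.365% of all genes) and 0 common falls.

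Most measured nuclear, RNA-processing and ribosomal genes fell on average, while few met the stricter common rule. The median ribosomal difference was -0.85 log2 with FBS and -0.27 log2 with RA/Fsk. Common falls were 4 of 23 nuclear and chromatin genes (Hmgb1, H2az1, Lmnb1, Ssrp1), 2 of 25 RNA-processing genes and 2 of 37 ribosomal protein genes. These shares were 17.4%, 8% and 5.4%, against 1.584% of all genes. On average 18, 17 and 34 of them fell, against 500 of all 4736 genes. Lmnb1, a lamin of the nuclear envelope, had 13.1, 35.2 and 117 in treated cultures (lowest, median, highest), against 121, 193 and 323 in progenitor cultures (-2.27 ± 0.25 log2). H2az1, a histone variant, had 809 to 1504 in treated cultures against 1648 to 3072 in progenitors (-1.03 ± 0.13 log2), and Ssrp1, part of the FACT histone chaperone, 160.3 to 284 in treated cultures against 337 to 399 in progenitors (-0.65 ± 0.12 log2). Hist1h2af, a replication-type histone, had 199.9 to 359.5 in treated cultures against 552 to 1505 in progenitors (-1.62 ± 0.15 log2), but histone genes are near-identical, so which copy was measured is uncertain. Nup54, a nuclear pore protein, had 52.0 to 88.4 in treated cultures against 154 to 228 in progenitors (-1.38 ± 0.14 log2). Hnrnpa1, a splicing regulator with near-identical copies, had 444 to 1068.5 in treated cultures against 1556 to 1863 in progenitors (-1.27 ± 0.12 log2), and its 3 other probe sets were not common falls. Hnrnpd, an AU-rich element binding protein, had 175 to 309 in treated cultures against 358.5 to 519.8 in progenitors (-0.97 ± 0.11 log2).

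Among the ribosomal genes, Rps3 had 4180.2 to 6717 in treated cultures against 7808 to 9505 in progenitors (-0.72 ± 0.09 log2) and Rpl14 936 to 1869 in treated cultures against 1886 to 2153 in progenitors (-0.71 ± 0.08 log2, largest adjusted p 0.0488). Rpl14 lost its call in 21 of 27 settings, including without any 1 culture other than RA/Fsk culture 3 (0.0633 to 0.184), and Rps3 without HD culture 4 (0.0726) or LD culture 1 (0.0741). Rps3 also lost it under quantile normalization (0.0818) or median centring (0.112), without the intensity trend (0.0609) and with array 3r alone for FBS culture 3 (0.0523). Lmnb1 lost it without HD culture 1 (0.0577) or LD culture 4 (0.0788) or with the GAPDH covariate (0.0804), and Hnrnpd without LD culture 4 (0.0524). H2az1 lost it without HD culture 1 or 2 or LD culture 1 (0.0527 to 0.106), and Ssrp1 without FBS culture 3 or 4 or any 1 HD culture (0.0544 to 0.1005). Second probe sets of Rps3 and Lmnb1 were also common falls (largest adjusted p 0.0069 and 0.0091). The nuclear count was 0 without HD culture 1 or with the GAPDH ratio as a covariate, 1 without HD culture 2 and 2 without FBS culture 3 or 4. The RNA-processing count was 1 without LD culture 4, and the ribosomal count was 0 without HD culture 4 or LD culture 1 or under median centring, and 1 with the GAPDH ratio as a covariate or without any 1 of the FBS cultures, RA/Fsk culture 2 or 4, HD culture 1 or 2 or LD culture 3.

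Of 16 measured genes of cholesterol synthesis 5 were common falls (Acat2, Dhcr7, Fdps, Idi1, Msmo1) and 13 fell on average, with a median of -1.44 log2. Fdps, which makes farnesyl diphosphate, had 953.5, 913, 924.5 and 782 in FBS cultures and 1079, 1064, 3338 and 1266 in RA/Fsk cultures, against 4562, 5764 and 4560.2 in HD and 4249, 4693 and 4225 in LD cultures. RA/Fsk culture 3 lay near the progenitors while still below all of them, and the difference was -2.01 ± 0.20 log2 (SE), with a limma adjusted p of 1.55e-06 and a largest adjusted p of 0.00222 among the 4 comparisons. Idi1, isopentenyl diphosphate isomerase, had 201, 364 and 1061 in treated cultures (lowest, median, highest), against 1350.4, 1812 and 2447 in progenitor cultures (-2.07 ± 0.17 log2), and its other probe set did not pass. Dhcr7, which catalyses the last step to cholesterol, had 254 to 567 in treated cultures against 634 to 1273 in progenitors (-1.29 ± 0.11 log2), and lost its call without LD culture 3 (0.0576) or 4 (0.0632); a second Dhcr7 probe set was not a common fall (largest adjusted p 0.159). Summed intensity over the list was 21326 in RA/Fsk culture 3 and 7030 to 10157 in the other 3 RA/Fsk cultures, with 4490 to 5338 in FBS cultures, against 22291 to 27799 in HD and 19304 to 25918 in LD, so RA/Fsk culture 3 lay within the LD range. Without RA/Fsk culture 3 the common falls numbered 12 of 16; without LD culture 3 or under median centring they numbered 2, and without LD culture 4 or RA/Fsk culture 2 they numbered 3. Fatty acid synthesis, glycolysis, oxidative phosphorylation and the proteasome had 0 common changes among 16, 23, 36 and 23 measured genes, where 2.365% of all genes were common rises and 1.584% common falls. On average 1, 5, 0 and 1 of them rose and 6, 2, 10 and 6 fell.

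**Figure D2:**
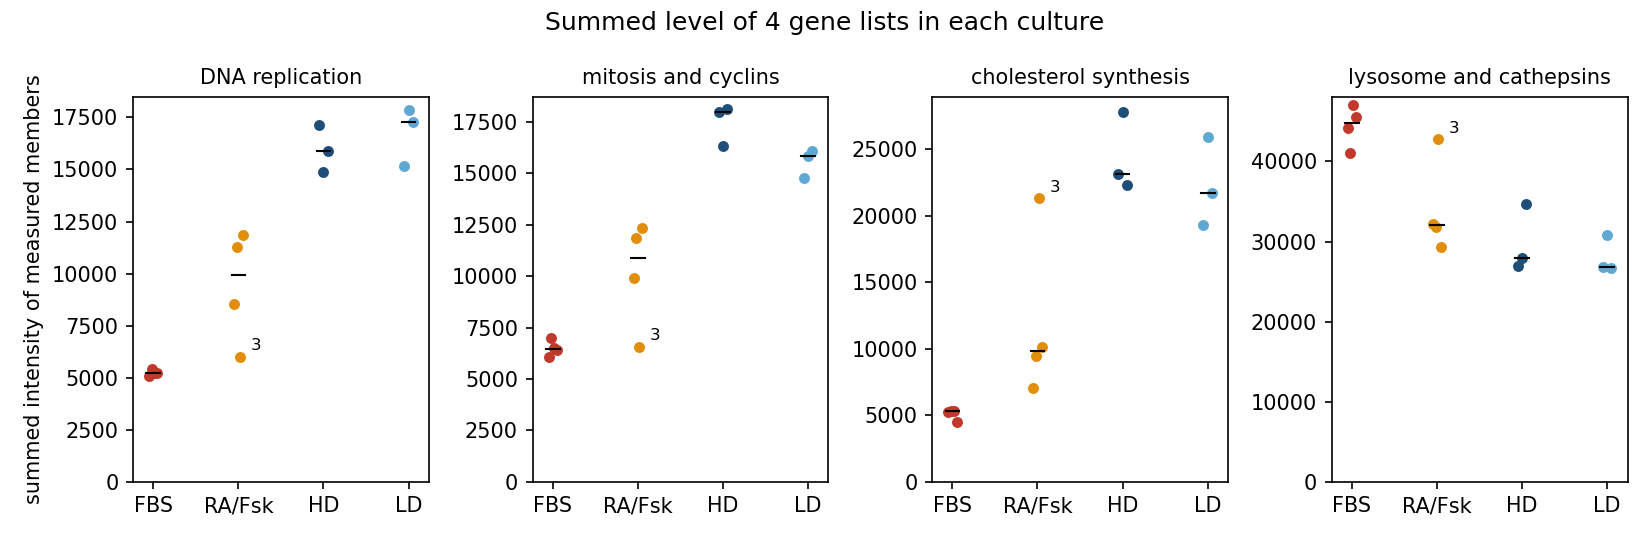
Summed linear intensity (y axis, from 0) of the measured members of 4 gene lists in each culture, with a bar at each group's median; RA/Fsk culture 3 is marked 3. It lies near the FBS cultures for replication, mitosis and lysosome genes and near the progenitors for cholesterol synthesis.

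The lysosome list also holds cathepsins and their inhibitors, such as Cstb. Of its 26 measured genes 10 were common rises (Atp6ap1, Atp6v1d, Cd63, Cstb, Ctsl, Gaa, Grn, Lamp1, Man2b1, Psap) and 0 common falls. That share of rises was 38.5%, against 2.365% of all genes, and the median was 0.71 log2. Cstb, an inhibitor of cathepsins, had 2244, 2051.5, 2292 and 2006 in FBS cultures and 2131, 2056, 2988 and 1786 in RA/Fsk cultures, against 897, 1031 and 1035 in HD and 921, 1042 and 816 in LD cultures. The groups did not overlap, and the difference was 1.18 ± 0.11 log2 (SE), with a limma adjusted p of 5.91e-07 and a largest adjusted p of 0.000144 among the 4 comparisons. Grn, the precursor of granulins, had 2059.6, 3324 and 4476 in treated cultures (lowest, median, highest), against 801, 911 and 1268 in progenitor cultures (1.67 ± 0.15 log2). Ctsl, cathepsin L, had 711 to 827 with FBS and 311 to 587 with RA/Fsk, against 146 to 199 in progenitors (1.63 ± 0.13 log2). Summed intensity was 42808 in RA/Fsk culture 3 and 29268 to 32209 in the other RA/Fsk cultures, with 41002 to 47080 in FBS cultures, against 26659 to 34706 in progenitors, so 3 of the 4 RA/Fsk sums lay within the progenitor range. The count of common rises was 5 with the GAPDH ratio as a covariate and 3 under median centring of the arrays, a scaling that moves the median difference of all probe sets to -0.09 log2.

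**Figure D3:**
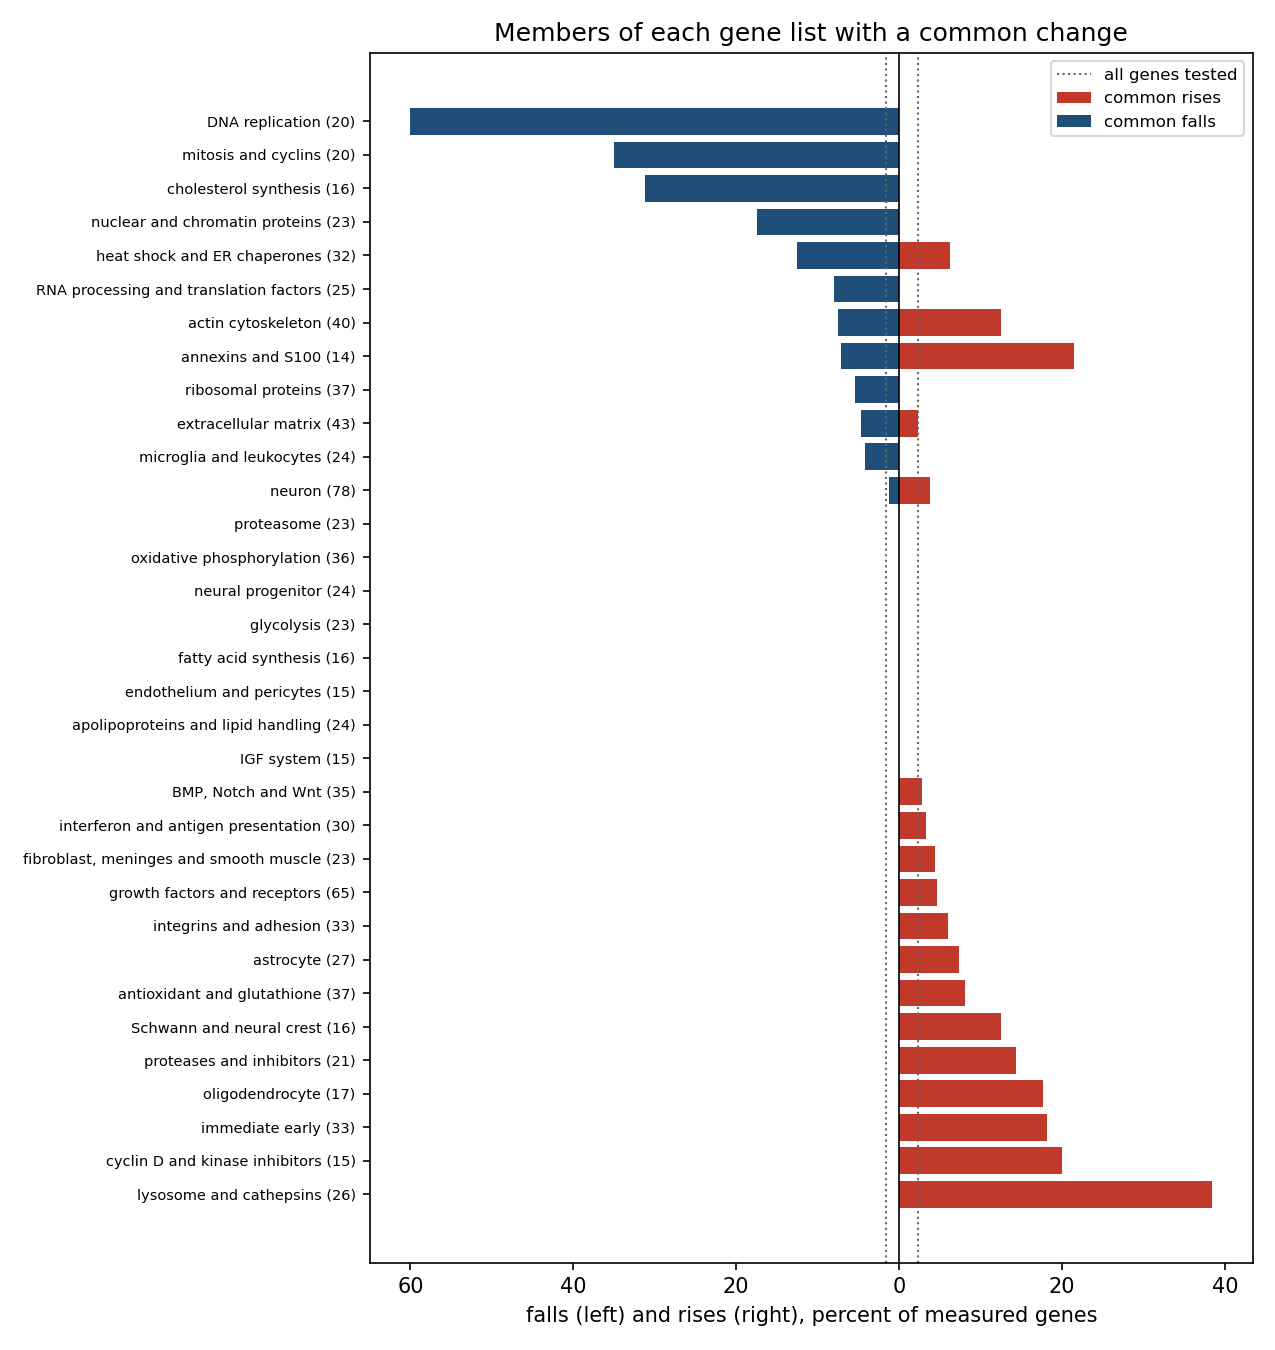
For each of 33 gene lists (measured genes in parentheses), the percentage of members that were common falls, drawn to the left, and common rises, drawn to the right; dotted lines mark the shares over all genes. The longest bars to the left are DNA replication (60%), mitosis and cholesterol synthesis, and to the right lysosome genes.

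The largest rises shared by both treatments included signalling genes. Pmepa1, a feedback inhibitor of TGF-beta signalling, had 3829.5, 2205, 2984 and 2191 in FBS cultures and 2619.5, 2695, 1686 and 2262 in RA/Fsk cultures, against 239.6, 184 and 165.5 in HD and 202, 256 and 420.0 in LD cultures. The lowest treated value was several times the highest progenitor value, and the difference was 3.39 ± 0.17 log2 (SE), with a limma adjusted p of 6.82e-10 and a largest adjusted p of 7.57e-07 among the 4 comparisons. Egr2, a zinc finger factor known for Schwann cell myelination, had 164, 273 and 608 in treated cultures (lowest, median, highest), against 9.3, 29.4 and 36.6 in progenitor cultures (3.45 ± 0.28 log2). Of 33 immediate early genes 6 were common rises (Crem, Egr2, Fos, Junb, Klf9, Sgk1) and 0 common falls. That share of rises was 18.2%, against 2.365% of all genes, and 3 rises were left when the GAPDH ratio was a covariate. Klf9, a Krueppel-like factor induced by glucocorticoids, had 249.7 to 467 in treated cultures against 99.9 to 146 in progenitors (1.62 ± 0.13 log2), and Sgk1, a kinase induced by serum and glucocorticoids, 233 to 432.5 in treated cultures against 92.2 to 174 in progenitors (1.33 ± 0.12 log2). Dab2, an endocytic adaptor, had 55.7 to 139.6 in treated cultures against 5.9 to 20.9 in progenitors (2.68 ± 0.22 log2). Ppp1r15a, which directs a phosphatase to eIF2-alpha, had 350.1 to 924 in treated cultures against 101 to 158 in progenitors (2.03 ± 0.18 log2).

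Of 65 measured genes for growth factors and their receptors 3 were common rises (4.615%, against 2.365% of all genes). Of these 65 genes, 38 had every group mean under 100. Gfra1, the GDNF co-receptor, had 213 to 419 in treated cultures against 46.9 to 116 in progenitors (1.70 ± 0.15 log2). Il6st, the shared receptor subunit of the interleukin 6 family, had 141 to 372 in treated cultures against 79.5 to 120.4 in progenitors (1.11 ± 0.19 log2), and Ntrk2, the BDNF receptor, 68.0 to 131 in treated cultures against 24.8 to 60.2 in progenitors (1.06 ± 0.20 log2). Il6st lost its call without HD culture 1 (0.0584) or LD culture 1 (0.0633). Ntrk2 lost it in 10 of 27 settings, among them without FBS culture 1, 2 or 3, HD culture 1 or 2 or LD culture 3 (0.0625 to 0.108), and its other probe set did not pass; the list's count was 1 without HD culture 1, under median centring and with the GAPDH ratio as a covariate. Ccl2, a monocyte chemokine, had 115.5 to 282 with FBS and 1933 to 2186.5 with RA/Fsk, against 56.5 to 109.6 in progenitors (2.92 ± 0.19 log2), and lost its call with the GAPDH ratio as a covariate (0.107). A second Ccl2 probe set was also a common rise (largest adjusted p 2.52e-06).

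Proteins of oxidant defence, proteolysis and the cell surface gave further common rises. Sod3, the extracellular superoxide dismutase, had 1663, 3086, 1742 and 2369.6 in FBS cultures and 1610.3, 3206, 1387 and 2068 in RA/Fsk cultures, against 188, 527 and 378 in HD and 184, 88.5 and 217 in LD cultures. The groups did not overlap, and the difference was 3.15 ± 0.26 log2 (SE), with a limma adjusted p of 1.78e-07 and a largest adjusted p of 0.000273 among the 4 comparisons. Gsta4, a glutathione transferase for lipid aldehydes, had 54.4 to 169 in treated cultures against 7.9 to 27.1 in progenitors (2.21 ± 0.26 log2). Prdx6, a peroxiredoxin, had 470.4 to 859.8 in treated cultures against 351 to 439 in progenitors (0.71 ± 0.08 log2, largest adjusted p 0.0468). It lost its call in 17 of 27 settings, among them without any 1 of the 4 FBS cultures, RA/Fsk cultures 2 to 4, the 3 HD cultures or LD cultures 1 and 3 (0.0609 to 0.146), and its 2 other probe sets were not common rises. Plat, tissue plasminogen activator, had 165, 399 and 559 in treated cultures (lowest, median, highest), against 20.4, 43.4 and 64.3 in progenitor cultures (3.02 ± 0.17 log2), and Timp1, an inhibitor of metalloproteinases, 600.2 to 969.7 in treated cultures against 380.3 to 434 in progenitors (0.89 ± 0.08 log2). Mmp11, a metalloproteinase, had 397.5 to 1526 in treated cultures against 161 to 336 in progenitors (1.60 ± 0.26 log2), and lost its call without FBS culture 4 or HD culture 1 or 2 (0.0506 to 0.102). Cd9 and Cd151, both tetraspanins, had 1496.5 to 3661 in treated cultures against 395 to 740.4 in progenitors (2.13 ± 0.10 log2) and 775 to 1659 in treated cultures against 422 to 628 in progenitors (1.10 ± 0.10 log2); Cd151 lost its call without HD culture 1 (0.0583).

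Of 43 measured matrix genes 1 was a common rise (2.33%) and 2 were common falls (4.65%), against 2.365% and 1.584% of all genes. Col5a1, a fibrillar collagen chain, had 316 to 429 with FBS and 135 to 197 with RA/Fsk, against 38.4 to 73.6 in progenitors (1.96 ± 0.15 log2). Thbs4, a thrombospondin, was near the bottom of the scale after treatment, at 6.3, 8.2 and 19.9 in treated cultures (lowest, median, highest), against 73.2, 93.3 and 138 in progenitor cultures (-2.84 ± 0.23 log2). Sdc1, a heparan sulphate proteoglycan, had 25.1 to 76.0 in treated cultures against 94.5 to 153 in progenitors (-1.56 ± 0.20 log2), and lost its call without LD culture 1 (0.0611) or 4 (0.0879); a second Sdc1 probe set was not a common fall (largest adjusted p 0.261). Of 40 actin cytoskeleton genes 5 were common rises and 3 common falls. Myl9, a regulatory myosin light chain, had 609 to 1886.5 with FBS and 284 to 332 with RA/Fsk, against 8.7 to 61.8 in progenitors (3.88 ± 0.26 log2), and Triobp, an actin-bundling protein, 288 to 531.5 in treated cultures against 49.5 to 128 in progenitors (2.15 ± 0.15 log2). Coro1a, an actin-binding protein of leukocytes, had 3.2, 9.1 and 30.4 in treated cultures (lowest, median, highest), against 108, 133 and 174 in progenitor cultures (-3.18 ± 0.23 log2), and Csrp2, a LIM protein, 93.7 to 228 in treated cultures against 391 to 478 in progenitors (-1.39 ± 0.16 log2). Anxa5 had 1859 to 2317 with FBS and 329 to 422 with RA/Fsk, against 130.5 to 213 in progenitors (2.34 ± 0.10 log2), while Anxa6, another calcium-dependent membrane-binding annexin, had 35.7 to 93.4 in treated cultures against 137 to 256 in progenitors (-1.72 ± 0.17 log2), although its other probe set did not pass.

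Other named changes were spread over functions. Cpt1a, which admits fatty acids to mitochondria, had 257 to 524 in treated cultures against 90.3 to 222 in progenitors (1.71 ± 0.19 log2). Cryab, a small heat shock protein, had 5429 to 7199 with FBS and 277 to 486 with RA/Fsk, against 112 to 188 in progenitors (3.36 ± 0.12 log2), and Calr, a chaperone of the endoplasmic reticulum, 1674 to 3168 in treated cultures against 1100.2 to 1778 in progenitors (1.04 ± 0.14 log2). Calr values overlapped between the sides, and its call was lost without LD culture 3 (0.0544). Hspe1, a mitochondrial chaperonin, had 826 to 1069 in treated cultures against 1329.7 to 2038 in progenitors (-0.79 ± 0.09 log2). It was 1 of 4 common falls among 32 chaperones (12.5%, against 1.584% of all genes). That count was 2 without HD culture 1 or 2, LD culture 4 or RA/Fsk culture 2, and 2 with the GAPDH ratio as a covariate. A second Hspe1 probe set fell on average but was not a common fall (largest adjusted p 0.327). Pde2a, a cyclic nucleotide phosphodiesterase, had 21.6 to 74.0 in treated cultures against 86.6 to 190.1 in progenitors (-1.53 ± 0.24 log2), and lost its call without LD culture 3 (0.0542) or 4 (0.0556).

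**Figure D4:**
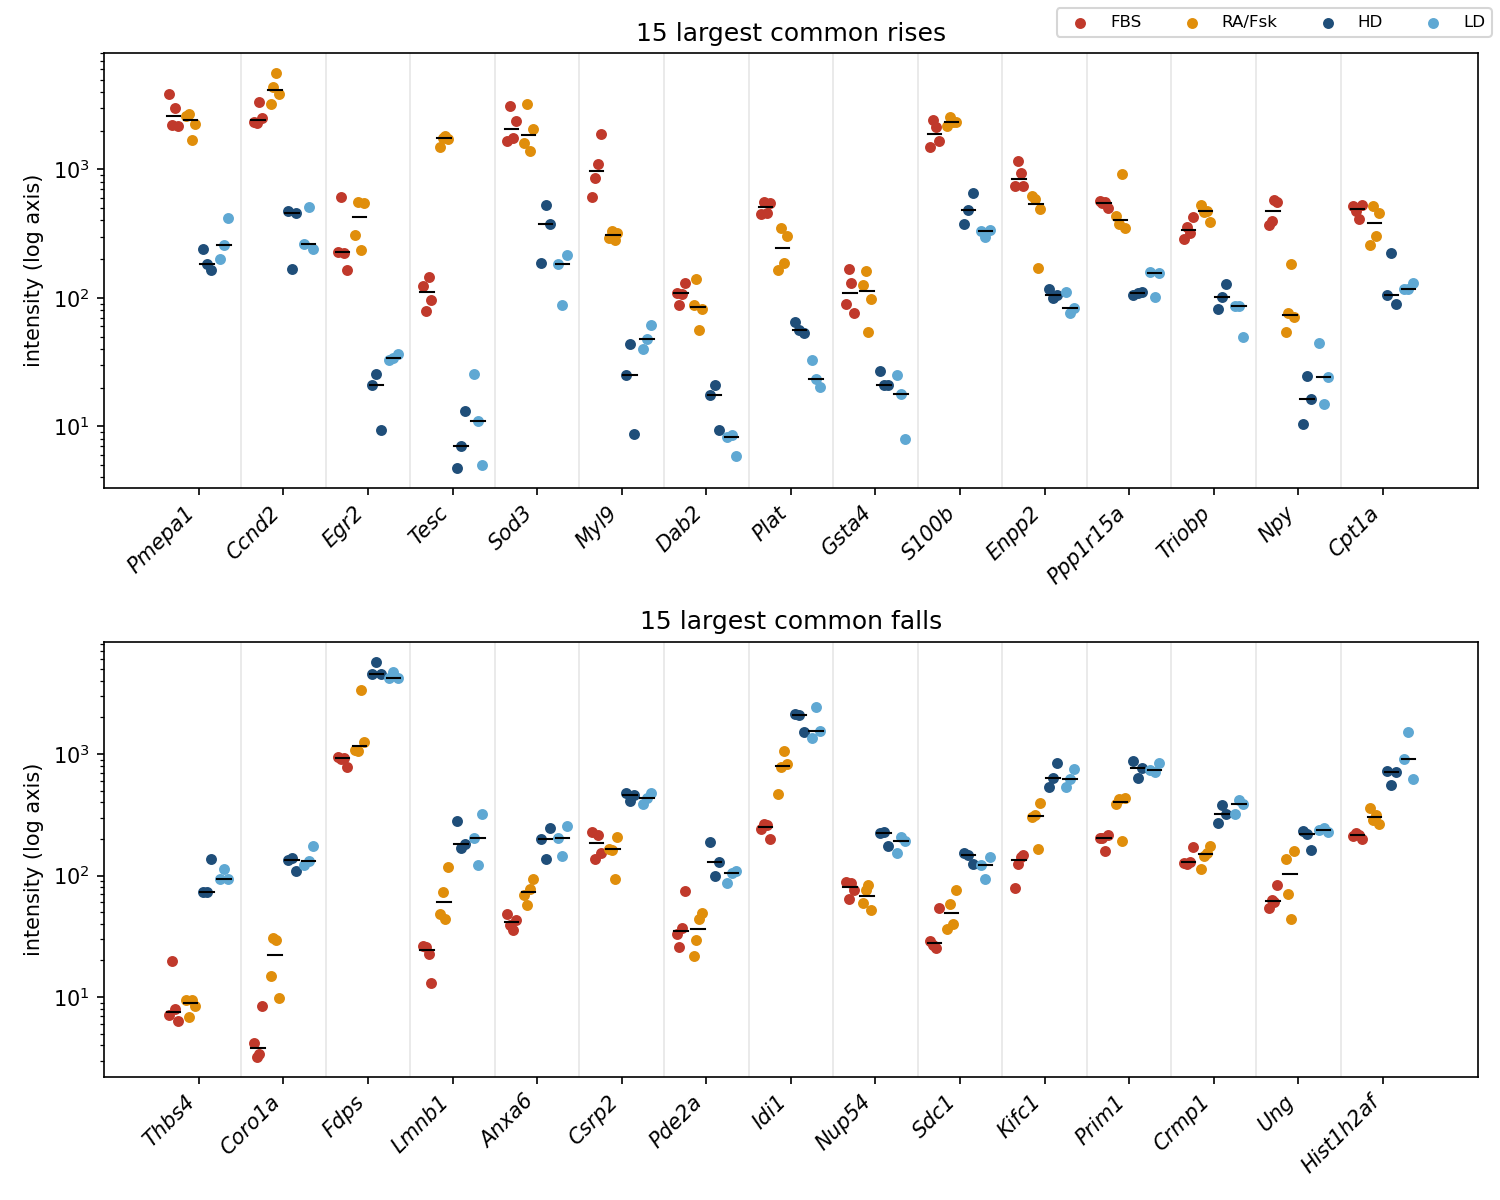
Linear intensity (log axis) of the 15 common rises and 15 common falls with the largest smallest difference over the 4 comparisons; each point is a culture and each bar a group median. Treated and progenitor points do not overlap for any of these genes, a condition of the rule that chose them.

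Cell type markers did not move as whole lists. Of 24 neural progenitor genes 0 were common changes, where over all genes 2.365% were common rises and 1.584% common falls. A list this short would hold few at those shares. On average 3 of the 24 rose and 5 fell. Nes, an intermediate filament of progenitors, had 621 to 1742 in treated cultures against 921 to 1573 in progenitors (0.01 ± 0.19 log2, adjusted p 0.989). Fabp7, a lipid carrier of radial glia, had 107 to 196 with FBS and 369 to 959 with RA/Fsk, against 446 to 757.5 in progenitors; only the FBS cultures were all below the progenitors. Of 27 astrocyte genes 2 were common rises (7.407%), while on average 8 rose and 2 fell. In this list 12 genes had every group mean under 100. S100b, a calcium-binding protein of astrocytes, had 1498, 2413, 2138 and 1659 in FBS cultures and 2191.5, 2564, 2352 and 2326 in RA/Fsk cultures, against 377, 483 and 651 in HD and 334, 295 and 336 in LD cultures. The groups did not overlap, and the difference was 2.39 ± 0.13 log2 (SE), with a limma adjusted p of 1.04e-09 and a largest adjusted p of 7.24e-07 among the 4 comparisons, while a second S100b probe set rose on average without being a common rise. Glul, glutamine synthetase, had 1413 to 2594 in treated cultures against 528 to 1011 in progenitors (1.22 ± 0.12 log2), and lost its call without HD culture 1 (0.0721), which left 1 astrocyte gene. The 3 other Glul probe sets were all common rises (largest adjusted p 0.000143, 0.000618 and 0.0176). Aqp4, the water channel of astrocyte end-feet, was at 4.0 to 26.2 in treated cultures against 7.2 to 20.2 in progenitors and did not pass.

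Of 78 neuronal genes 3 were common rises (Cpe, Npy, Tesc) and 1 a common fall, Crmp1. These shares were 3.846% and 1.282%, against 2.365% and 1.584% of all genes, and 45 of the 78 had every group mean under 100. Without LD culture 3 the rises numbered 1. Tesc, a calcium-binding protein, had 78.8 to 144 with FBS and 1501 to 1806 with RA/Fsk, against 4.7 to 25.4 in progenitors (4.89 ± 0.23 log2). Npy, a neuropeptide, had 369.5 to 574 with FBS and 54.7 to 182 with RA/Fsk, against 10.4 to 44.4 in progenitors (3.02 ± 0.27 log2), and lost its call without LD culture 3 (0.0868). Crmp1, a collapsin response mediator, had 112 to 174 in treated cultures against 271 to 417 in progenitors (-1.27 ± 0.13 log2). Map2, a dendritic microtubule protein, and Snap25, a synaptic vesicle fusion protein, did not pass (0.06 ± 0.15 and 0.08 ± 0.24 log2). Of 17 oligodendrocyte genes 3 were common rises. Enpp2, autotaxin, had 169, 675 and 1165 in treated cultures (lowest, median, highest), against 75.8, 102 and 118 in progenitor cultures (2.58 ± 0.23 log2). Mbp, a myelin protein, had 186, 317 and 789.5 in treated cultures (lowest, median, highest), against 18.2, 81.6 and 174 in progenitor cultures (2.12 ± 0.35 log2), and lost its call in 14 of 27 settings, among them without FBS culture 1, 2 or 4, HD culture 1 or any 1 LD culture (0.0552 to 0.124).

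Of the marker lists for cells outside the neural lineage, 1 of 24 microglia and leukocyte genes (Coro1a), 0 of 15 endothelial and pericyte genes and 1 of 23 fibroblast and smooth muscle genes (Myl9) were common changes. Over all genes 2.365% were common rises and 1.584% common falls. In these lists 21, 13 and 15 members had every group mean under 100, so the counts and sums rest largely on dim signal and do not show whether such cells were present. Summed intensity of the microglia list was 707 to 1189 in treated against 723 to 1182 in progenitor cultures. That of the fibroblast list was 4726 to 7747 with FBS and 1511 to 2346 with RA/Fsk, against 1226 to 1853 in progenitors. Its part in the common changes was not tested.

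Sizes differed between the treatments for 122 of the 315 common changes, where the direct comparison of RA/Fsk with FBS passed (18.4% of all probe sets did). Among 66 such rises 56 were larger with FBS and 10 with RA/Fsk, and among 56 such falls 55 were larger with FBS and 1 with RA/Fsk. The median rise was 1.29 log2 with RA/Fsk and 1.53 log2 with FBS, and the median fall -0.93 and -1.31 log2. Tesc was higher in RA/Fsk than in FBS cultures by 3.91 ± 0.30 log2 (adjusted p 7.55e-08), and Ccl2 by 3.54 ± 0.25 log2 (adjusted p 3.79e-08). The reverse held for Cryab, at -4.06 ± 0.16 log2 (adjusted p 1.13e-10), and for Anxa5, at -2.51 ± 0.13 log2 (adjusted p 1.05e-09). Pmepa1 did not differ detectably, at -0.26 ± 0.23 log2 (adjusted p 0.527). Finally, 12 probe sets passed all 4 comparisons with mixed signs: 6 were higher with FBS and lower with RA/Fsk, and 5 the reverse.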

How the data were processed

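The deposited table holds 1 linear intensity per probe set and array for 20 Affymetrix rat arrays with 8799 probe sets; how the authors made these values is not stated in any source used here. The trimmed means of the arrays (2% left out at each end) lie at 200.3 to 200.5, so the deposited intensities look scaled, with medians of 41 to 57.5. The number of arrays limits the precision. Probe sets were named from GEO's platform annotation: of 8740 tested (59 control probe sets left out), 7006 have 1 symbol, 308 several and 1426 are unnamed here; 6985 matched the RefSeq gene table of GRCr8.

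Intensities were transformed as log2(intensity + 4.99), 10% of the median positive value, and averaged within cultures. All 14 cultures were fitted with limma 3.58.1 in R 4.3.3 (lmFit, eBayes with an intensity trend; 10 residual degrees of freedom), with 1 coefficient per group, no covariate and Benjamini-Hochberg adjustment over 8740 probe sets. Differences are treated minus progenitor. A low gene's difference on this scale understates its change. Lists are described by counts, with the brightest probe set of each gene. The fit was tested on simulated data.

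The comparison and the 33 gene lists were chosen with earlier results of these data known. The rule for named genes took the 15 rises and 15 falls with the largest smallest size of the 4 comparisons (brighter side not below the overall median, cultures not overlapping), from every list at most 3 members, those with the smallest largest adjusted p, and 10 set markers. Of the 74 genes it names, 1 is not reported here; members listed for a small count beyond those were chosen after their values were seen. RA/Fsk and LD cultures of a shared number deviated together (r = 0.327, 0.157 and 0.108), which the other group pairs did not in every pair (-0.063 to 0.13), so a replicate block was tried as a fixed term and as a random one. Other alternatives were pseudocounts, filters, scalings, no trend, arrays as samples, a GAPDH covariate and leaving out each culture.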

Additional observations from a re-analysis of the deposited data

Results flagged for a closer look

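Of the 67 named genes with a common change, 27 differed in size between the treatments, by limma's test of RA/Fsk minus FBS adjusted over all probe sets. Among the rises, the log2 differences were Tesc 3.91 and Ccl2 3.54, larger with RA/Fsk, and Myl9 -1.72, Plat -1.05, Enpp2 -1.07, Npy -2.37, Ctsl -1.01, Col5a1 -1.21, Timp1 -0.47, Cd9 -0.92, Cd151 -0.72, Anxa5 -2.51, Prdx6 -0.59 and Cryab -4.06, larger with FBS. Among the falls they were Coro1a 1.35, Lmnb1 1.42, Anxa6 0.75, Idi1 1.62, Kifc1 1.19, Prim1 0.80, Mcm7 0.79, Pttg1 0.83, H2az1 0.53, Hnrnpa1 0.71, Rps3 0.38, Rpl14 0.64 and Dhcr7 0.60, all higher in RA/Fsk than in FBS cultures, so that each fall was larger with FBS.

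In 12 of 148 groups of 4 cultures, 1 culture lay far from the other 3, by the share of the group's range that its gap takes up (Dixon's test). The ratios were taken on the log2 scale, while the intensities beside them are linear. Chance gives about 1 in 20 such groups. RA/Fsk culture 3 accounted for 6 of them: Enpp2 in RA/Fsk culture 3 (ratio 0.83, intensity 169 against 495 to 615), Fdps in RA/Fsk culture 3 (ratio 0.8481, intensity 3338 against 1064 to 1266), Prim1 in RA/Fsk culture 3 (ratio 0.8584, intensity 191 against 385 to 432), Ccnd3 in RA/Fsk culture 3 (ratio 0.8448, intensity 779.8 against 1312 to 1443), Rpl14 in RA/Fsk culture 3 (ratio 0.8341, intensity 1869 against 1419.6 to 1486) and Anxa5 in RA/Fsk culture 3 (ratio 0.8594, intensity 422 against 329 to 340.5). The others were Sdc1 in FBS culture 4 (ratio 0.8291, intensity 54.3 against 25.1 to 28.8), Crmp1 in FBS culture 4 (ratio 0.8517, intensity 170.4 against 124 to 129.7), Pttg1 in FBS culture 3 (ratio 0.9117, intensity 710.4 against 580.2 to 591), Glul in RA/Fsk culture 4 (ratio 0.8418, intensity 1919 against 1413 to 1483), Ntrk2 in FBS culture 4 (ratio 0.9526, intensity 68.0 against 95.4 to 97.0) and Ccnd1 in FBS culture 2 (ratio 0.893, intensity 1542 against 2244 to 2347).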

How the results depend on the processing

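Main counts were 177 common rises, 138 common falls, 122 treatment differences among them, 1020 average rises and 897 average falls, and no count or named gene reversed. Common falls numbered 81 without the intensity trend and 81 with the GAPDH ratio as a covariate, which left 64 treatment differences. Requiring 1 log2 in each size gave 97 common rises, 44 common falls, 54 treatment differences, 436 average rises and 207 average falls. Requiring cultures not to overlap gave 251 average rises and 212 average falls, and a fit of 8 against 6 cultures as 2 groups, in which treatment and density differences enter the spread, gave 620 and 586. Leaving out 1 culture gave 135 to 176 common rises and 88 to 148 common falls. With the title number as a fixed replicate block there were 178 common rises, 135 common falls, 140 treatment differences, 1106 average rises and 931 average falls; among named genes it ended the calls of Pcna (largest adjusted p 0.0735), Ung (0.0661), Mbp (0.0637) and Rpl14 (0.0580), and it raised the cholesterol falls to 8 of 16. A random replicate block for RA/Fsk and LD cultures of a shared number, chosen after seeing the data, gave 193, 175, 142, 1116 and 988 of these, 11 mitosis falls and 4 RNA-processing falls, and ended the call of Rpl14 (0.0551). Median centring moved the median of all probe sets to -0.09 log2 and the share of average calls that were higher to 42.3%, against 53.2%; 121 of the common rises and 100 of the common falls were shared with it. Over 74 named genes, 1898 of 2065 checks left the call as it was and 167 ended it, and 42 genes kept their status in every one. With a pseudocount of 49.9 the log2 differences of 12 dim genes shrank by over 1.5 times: Tesc to 3.12, Npy to 1.89, Dab2 to 1.25, Gsta4 to 1.19, Cdkn2b to 1.14, Ntrk2 to 0.63, Coro1a to -1.57, Lmnb1 to -1.47, Thbs4 to -1.30, Sdc1 to -0.96, Pde2a to -0.91 and Pola1 to -0.75; quantile normalization moved Rps3 to -0.39. The cause was not tested where none is named. Low intensity limits genes near the pseudocount, and detection calls were not used here.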
